A study of Homo sapiens with 4 samples.

Results

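The human HIST genes encode the core histones H2A, H2B, H3 and H4, which form the protein spool of the nucleosome, and the linker histone H1, which binds the DNA between nucleosomes. Genes were taken by symbol, a name beginning with HIST and a cluster number from 1 to 4, where both deposited mRNA tables list it. This gave 70 of the 19732 symbols of the table for A549, with 81 transcripts between them. By class they are 6 H1, 16 H2A, 18 H2B, 15 H3 and 15 H4 genes. One further symbol, HIST2H2AA3, is in the A549 table only and is used below as the twin of HIST2H2AA4.

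A549 is a human lung adenocarcinoma cell line of epithelial type. The values compare A549 cells with RBM4 knocked down and A549 control cells, 1 library each, with no further genotype, treatment or time given. RBM4 is an RNA-binding protein that acts in splicing and translation. The second line, H1299, also a human lung cancer line, was not analysed here, because the 3 value columns of its table carry names that match no sample label. The titles of the knockdown samples add the letters sh to the name of the line. The construct, and whether the cells were a pool or 1 clone, are not given in the sources used here.

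Most of these genes are replication-dependent. Their mRNA is made in bulk while DNA is copied, in S phase, and is removed afterwards. Unlike other mRNAs it is cut after a short hairpin, the stem-loop, and as a rule carries no poly(A) tail. The stem-loop binding protein SLBP and the U7 particle direct that cut, and NPAT drives transcription of the clusters. Some members, among them several H2A, H2B and H1 genes, are also known to give polyadenylated mRNA, and a few are expressed mainly in testis.

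The hairpin is shown first because it sets these mRNAs apart. A search for the letters GGNNNTTTTCANNNCC after the stop codon, on the transcript strand, found 25 transcripts of 22 members. Between the last amino acid codon and the hairpin lay 25 to 70 bases, the stop codon included. They hold 3 different sequences, given here as DNA letters with the 6 stem bases on each side in capitals and the 4 loop bases in lower case:
HIST1H2BE (chr6:26184210-26184225, plus strand): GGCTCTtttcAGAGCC
HIST1H4J (chr6:27824459-27824474, plus strand): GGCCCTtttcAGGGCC
HIST1H2AG (chr6:27133515-27133530, plus strand): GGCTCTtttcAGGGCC
Positions are those of GENCODE release 29 on GRCh38. The first sequence is that of 16 members, all H2A, H2B or H3. The second belongs to 5 members, all H4, and the third to HIST1H2AG alone. The main annotated transcript of 36 members ends at the stop codon, so that no hairpin could be found there.

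The HIST genes were lower in the RBM4 knockdown library in every class. Of the 70 genes, 57 were measured, which here means at least 1 FPKM (fragments per kilobase of transcript, scaled to library size) in either library. Of those 57, 49 were at least 2-fold lower in the knockdown library and 1, HIST1H4J, was at least 2-fold higher. The remaining 7 stayed short of 2-fold. Among all 12230 measured genes, 2.25% were at least 2-fold lower and 4.96% at least 2-fold higher. The 49 genes were 17.8% of the 275 genes that were 2-fold lower, while measured members were 0.466% of the genes measured.

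Each difference is log2((knockdown FPKM + 1) / (control FPKM + 1)). The measured members had a median difference of -1.39, with quartiles of -1.51 and -1.15, against -0.04 over all measured genes. Summed over all 70 genes, the level was 8649 FPKM in the knockdown library and 21342 FPKM in the control library, 40.5% of control. That was 1.39% of all FPKM in the knockdown library and 3.18% in the control library. At least 100 FPKM was reached by 28 members in the knockdown library and 50 in the control library. The members can be set beside other genes of high level. Of the other 768 genes at 100 FPKM or more in the control library, 28 were at least 2-fold lower (3.65%), with a median difference of -0.25.

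**Figure D1:**
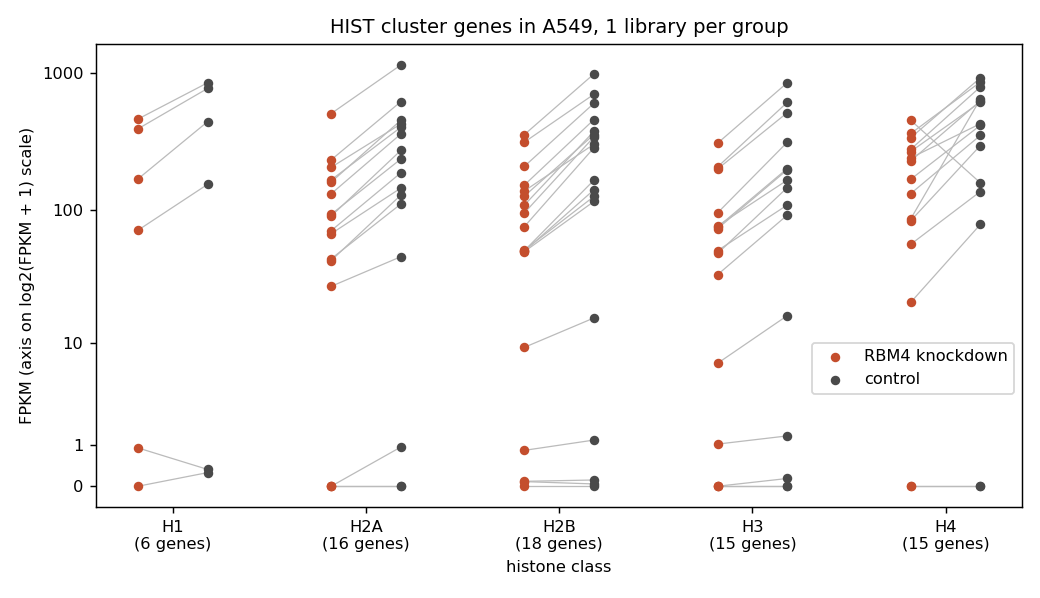
FPKM of each of the 70 HIST genes in the RBM4 knockdown library (left) and the control library (right) of each class, on a log2(FPKM + 1) axis, with lines joining the values of 1 gene. Nearly all lines climb towards control, and the line of HIST1H4J among the H4 genes runs the other way, as do those of HIST1H1T and HIST1H2BG below 1 FPKM.

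With 1 library per group there is no replicate error and no test, and the depth behind the values is unknown. FPKM is relative to its own library, and 12067 genes in the knockdown library and 11702 in the control library were at 1 FPKM or more. In bulk RNA, fewer cells holding a transcript and less of it per cell cannot be told apart. RBM4 itself had 30.6 FPKM in the knockdown library and 59.4 FPKM in the control library, 51.5% of control, which is the direction the labels give. All 5 epithelial markers were at 1 FPKM or more in both libraries, and their summed level was 1875 FPKM in the knockdown library and 3539 FPKM in the control library. KRT18 (-1.02) and KRT8 (-0.89) were lower in the knockdown library and KRT19 (1.11) was higher. The part of this shift in the histone values was not tested. Of 8 markers of blood, endothelial and fibroblast cells, only COL1A1 reached 1 FPKM, with 9.47 FPKM in the knockdown library and 2.61 FPKM in the control library, while DCN and CD3E were at 0 in both. Their summed level was 9.99 FPKM in the knockdown library and 2.66 FPKM in the control library, and its part in the histone values was not tested. The labels name an Illumina TruSeq RNA kit, a type often used with capture of poly(A) RNA. The capture step is not given in the sources used here, and its part in the histone levels was not tested.

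Linker histone genes were the class with the median difference nearest to 0, -1.04 over 4 measured of 6 listed, and 2 of the 4 were at least 2-fold lower. HIST1H1C (ENSG00000187837, minus strand of chromosome 6 at 26055787 to 26056428) had the highest level, 464.4 FPKM in the knockdown library and 852.1 FPKM in the control library, a difference of -0.87. HIST1H1E had 394.2 FPKM in the knockdown library and 775.2 FPKM in the control library (-0.97). Both stayed short of 2-fold. HIST1H1D was the lowest of the class, with 169.8 FPKM in the knockdown library and 444.1 FPKM in the control library (-1.38), and HIST1H1B followed with 71.4 FPKM in the knockdown library and 155.0 FPKM in the control library (-1.11). These 4 encode the main somatic linker histones, and summed H1 level was 49.4% of control. HIST1H1T, the testis linker histone, had 0.898 FPKM in the knockdown library and 0.325 FPKM in the control library.

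H2A genes were at least 2-fold lower in 12 of 13 measured, with a median of -1.33. HIST2H2AA4 (ENSG00000272196, plus strand of chromosome 1 at 149851061 to 149851624) had the highest level of all members by its mean, 509.2 FPKM in the knockdown library and 1147 FPKM in the control library (-1.17). HIST1H2AI had 234.1 FPKM in the knockdown library and 620.5 FPKM in the control library (-1.40), and HIST2H2AC had 206.5 FPKM in the knockdown library and 427.3 FPKM in the control library (-1.05). The lowest difference was that of HIST2H2AB, a gene on the opposite strand close to HIST2H2AC, with 90.8 FPKM in the knockdown library and 274.0 FPKM in the control library (-1.58). HIST3H2A, of the small HIST3 cluster, was the class member short of 2-fold, with 27.3 FPKM in the knockdown library and 45.5 FPKM in the control library (-0.71).

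H2B genes had the lowest median of the 5 classes, -1.48, and 13 of 15 measured were at least 2-fold lower. HIST1H2BD (ENSG00000158373, plus strand of chromosome 6 at 26158146 to 26171349) led with 357.7 FPKM in the knockdown library and 988.6 FPKM in the control library (-1.46). HIST1H2BC had 315.1 FPKM in the knockdown library and 703.0 FPKM in the control library (-1.16), and HIST1H2BL had 210.0 FPKM in the knockdown library and 604.7 FPKM in the control library (-1.52). The lowest differences were those of HIST1H2BM and HIST1H2BE, neither of them among the 3 most abundant. HIST1H2BM had 76.0 FPKM in the knockdown library and 286.8 FPKM in the control library (-1.90), and HIST1H2BE had 95.8 FPKM in the knockdown library and 343.8 FPKM in the control library (-1.83). The pair short of 2-fold were HIST3H2BB, with 9.21 FPKM in the knockdown library and 15.7 FPKM in the control library (-0.71), and HIST1H2BF, near 1 FPKM in both (-0.25).

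H3 genes were at least 2-fold lower in 11 of 12 measured, with a median of -1.42. HIST1H3B (ENSG00000274267, minus strand of chromosome 6 at 26031650 to 26032060) had 309.5 FPKM in the knockdown library and 851.6 FPKM in the control library (-1.46). HIST2H3D had 207.8 FPKM in the knockdown library and 612.9 FPKM in the control library (-1.56), and HIST1H3C had 200.6 FPKM in the knockdown library and 515.6 FPKM in the control library (-1.36). The lowest difference was that of HIST1H3J, with 95.9 FPKM in the knockdown library and 313.9 FPKM in the control library (-1.70). The 10 HIST1 genes of the class encode 1 protein, H3.1, and together had 821.6 FPKM in the knockdown library and 2212 FPKM in the control library, a log2 ratio of -1.43. HIST2H3PS2, at 1.02 FPKM in the knockdown library and 1.32 FPKM in the control library (-0.20), was the member short of 2-fold.

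H4 genes had the largest summed level, 2728 FPKM in the knockdown library and 6350 FPKM in the control library, and 14 of the 15 encode the same protein. Ranks by FPKM depend in part on annotated transcript length, such as 312 bases for HIST1H4A and 2250 for HIST1H2AG. Of 13 measured, 11 were at least 2-fold lower, 1 was at least 2-fold higher, and the median was -1.40. HIST2H4A (ENSG00000270882, plus strand of chromosome 1 at 149832659 to 149839767) had 339.4 FPKM in the knockdown library and 925.5 FPKM in the control library (-1.44). HIST1H4C had 364.4 FPKM in the knockdown library and 862.5 FPKM in the control library (-1.24), and HIST1H4H had 279.4 FPKM in the knockdown library and 795.1 FPKM in the control library (-1.51). HIST4H4, the only member on chromosome 12, stayed short of 2-fold with 241.9 FPKM in the knockdown library and 429.2 FPKM in the control library (-0.82).

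The lowest and the highest difference of all members were both H4 genes and belong to a pair of copies. HIST1H4K (ENSG00000273542, minus strand of chromosome 6 at 27831216 to 27831527) had 86.7 FPKM in the knockdown library and 647.9 FPKM in the control library (-2.89). HIST1H4J (ENSG00000197238, plus strand of chromosome 6 at 27824108 to 27824480) had 454.2 FPKM in the knockdown library and 159.0 FPKM in the control library (1.51). Their coding sequences, 309 bases each, differ at 0 positions, and the whole 312-base annotated transcript of HIST1H4K is contained in that of HIST1H4J, which has 373 bases. Reads from that stretch fit both genes. The first 60 coding bases of the pair and of HIST1H4C, another H4 gene with the same protein, show what a read can tell apart. Capitals mark bases that differ from HIST1H4J:
HIST1H4J (chr6:27824125-27824184, plus strand): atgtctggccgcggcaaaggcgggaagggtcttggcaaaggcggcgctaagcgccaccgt
HIST1H4K (chr6:27831468-27831527, minus strand): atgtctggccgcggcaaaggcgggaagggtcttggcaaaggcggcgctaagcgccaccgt
HIST1H4C (chr6:26103948-26104007, plus strand): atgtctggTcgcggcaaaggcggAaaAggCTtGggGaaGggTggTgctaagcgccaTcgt
HIST1H4C differs from HIST1H4J at 11 of these 60 bases and at 61 of all 309. None of the 50-base windows of HIST1H4K (0%) and 18.8% of those of HIST1H4J occur in no other annotated gene, against 100% for HIST1H4C.

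Because of the shared sequence, the split between HIST1H4J and HIST1H4K is uncertain. Their sum depends on it only through the transcript lengths, 373 and 312 bases. As the split changed between the libraries, the difference of the sum is uncertain to that extent. The sum was 540.9 FPKM in the knockdown library and 806.9 FPKM in the control library, 67.0% of control (-0.58). HIST1H4J made up 84.0% of that sum in the knockdown library and 19.7% in the control library. The other identical copies kept their split in both libraries. HIST2H4A was 71.9% of the sum with HIST2H4B in the knockdown library and 72.4% in the control library, and HIST2H3A was 49.4% of the sum with HIST2H3C in the knockdown library and 49.5% in the control library. HIST2H2AA3 was 49.4% of the sum with HIST2H2AA4 in the knockdown library and 51.5% in the control library. These 3 sums differed by -1.43, -1.42 and -1.23. Without HIST1H4J and HIST1H4K, 48 of 55 measured members were at least 2-fold lower, 0 were 2-fold higher, and the H4 sum was 2187 FPKM in the knockdown library and 5543 FPKM in the control library.

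**Figure D2:**
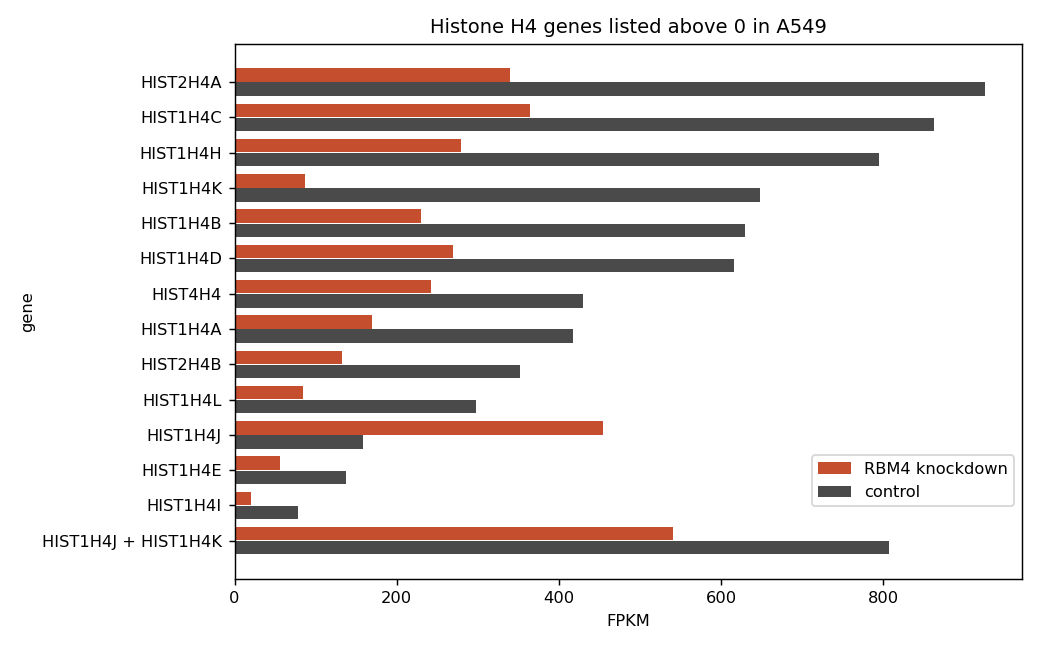
FPKM of the 13 H4 genes above 0 in the RBM4 knockdown library (upper bar) and the control library (lower bar), ordered by control level, with the sum of the copies HIST1H4J and HIST1H4K as the last row. HIST1H4J is the only gene with the longer bar for the knockdown library, and the pair's sum is 540.9 FPKM in the knockdown library and 806.9 FPKM in the control library.

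Members with more and with less sequence found in no other gene had like values. In 37 measured members, at least 90% of the 50-base windows occur in no other gene, and 31 of these were at least 2-fold lower with a median of -1.36. In the other 20, 18 were at least 2-fold lower with a median of -1.41. The summed log2 ratio was -1.31 in the 37 and -1.30 in the 20. Among the 20 are HIST1H2AI and HIST1H2AJ, with 37.7% and 16.3% of their windows in no other gene. They share 283 windows with each other, so the level of each is uncertain, while their sum differed by -1.39. HIST2H3D, given above as an H3 gene of high level, is also among the 20. Only 19.6% of its windows occur in no other gene, so its level and rank are uncertain.

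By position, the large clusters were alike and the small HIST3 cluster held no gene past 2-fold. The HIST1 cluster of chromosome 6 holds 55 members, of which 43 were measured and 39 were at least 2-fold lower (median -1.39). The HIST2 cluster of chromosome 1 had 10 of 11 at least 2-fold lower (median -1.41). The HIST3 cluster, further along chromosome 1, had 0 of 2 measured at least 2-fold lower, both at -0.71. Within HIST1, the 34 genes below 27 Mb included all 12 of the cluster's unmeasured genes, and 19 of the 22 measured were at least 2-fold lower. All 21 genes above 27 Mb were measured, and 20 were at least 2-fold lower.

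**Figure D3:**
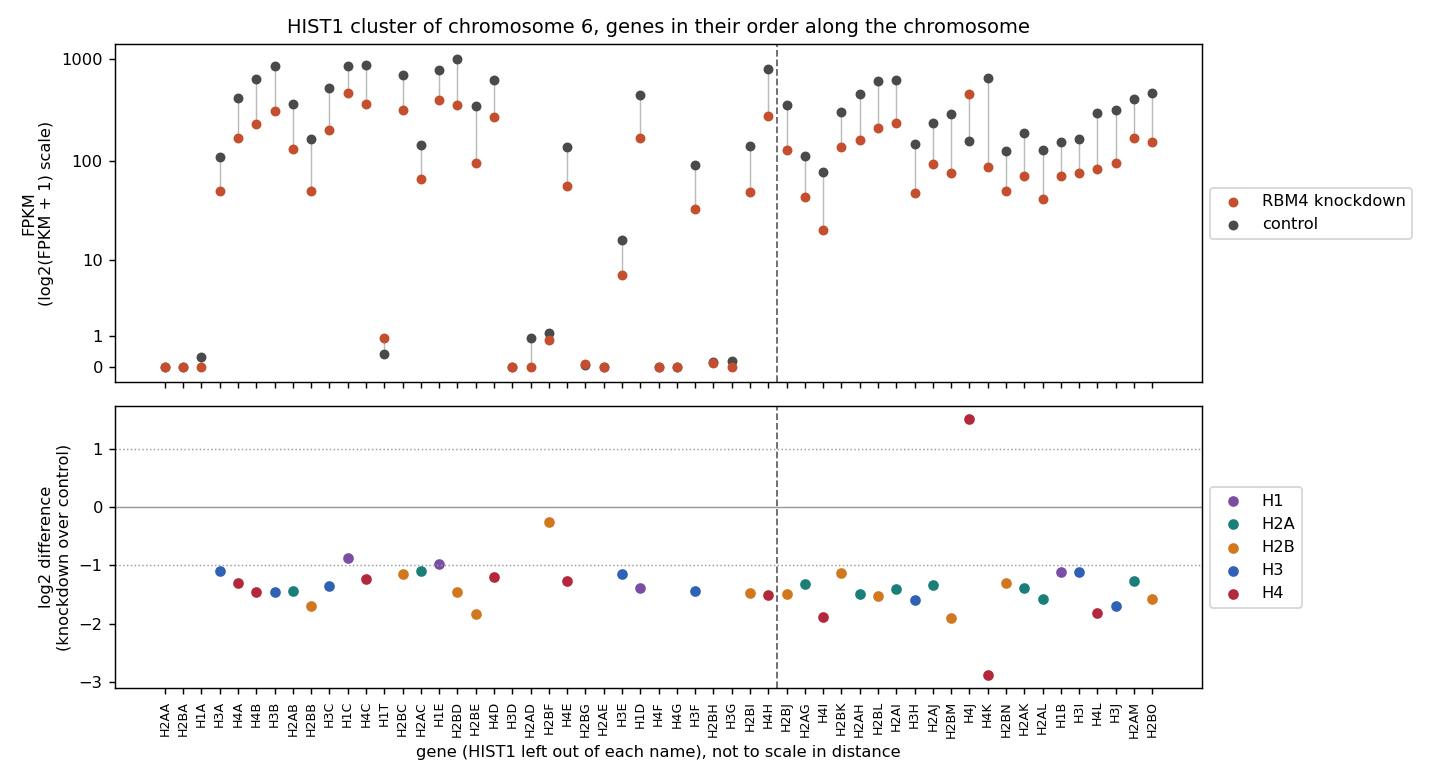
Upper panel, FPKM of the 55 HIST1 genes in the RBM4 knockdown library and the control library on a log2(FPKM + 1) axis, in their order along chromosome 6; lower panel, the log2 difference of the 43 measured genes coloured by class, with dotted lines at 2-fold and a dashed line at 27 Mb. The genes at or near 0 all lie left of the dashed line, and only HIST1H4J lies above 0 in the lower panel.

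The 13 unmeasured members sum to 1.06 FPKM in the knockdown library and 1.79 FPKM in the control library. Listed at 0 in both libraries were HIST1H2AA, HIST1H2BA, HIST1H2AE, HIST1H3D, HIST1H4F, HIST1H4G and HIST3H3. HIST1H2AA, HIST1H2BA and HIST3H3 are known as testis histone genes. HIST1H1A, HIST1H2AD, HIST1H2BG, HIST1H2BH and HIST1H3G were, like HIST1H1T, above 0 but below 1 FPKM. The exons of HIST1H2AD and HIST1H3D overlap those of another annotated gene on the same strand, AL031777.3, so their low values are uncertain. Same-strand exons also overlap in HIST1H2AM with HIST1H3J, in HIST1H2AL with HIST1H2BN, and in HIST2H3PS2 with AC239798.4, and 0% of the 50-base windows of HIST2H3PS2 occur in no other gene. Exons on opposite strands overlap in HIST1H2AK with HIST1H2BN, HIST2H2AB with BOLA1, HIST2H2BF with FCGR1A, HIST2H3PS2 with AC246680.1, and HIST2H3A and HIST2H3C with the paired HIST2H4 genes. Whether strand was used in the counting is not known, and the values of all these genes are uncertain.

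Most H2A genes stand head to head with an H2B gene, on opposite strands. There were 11 such pairs by GENCODE gene starts, 219 to 331 bases apart, and RefSeq starts added HIST1H2AK with HIST1H2BN, 194 bases apart. Both partners were measured in 9 of the 12. The H2B partner had the lower difference in 6 of the 9, with a median H2B minus H2A of -0.12. The widest gap was in the pair of HIST1H2AJ, with 93.5 FPKM in the knockdown library and 237.0 FPKM in the control library (-1.33), and HIST1H2BM (-1.90). HIST1H2AH and HIST1H2BK went the other way, as did HIST1H2AK (-1.39) and HIST1H2BN (-1.29). HIST3H2A and HIST3H2BB were nearly equal, both at -0.71. HIST1H2AH had 161.1 FPKM in the knockdown library and 454.5 FPKM in the control library (-1.49). HIST1H2BK had 138.8 FPKM in the knockdown library and 304.5 FPKM in the control library (-1.13). Only 16.3% of the 50-base windows of HIST1H2AJ and 25.9% of those of HIST1H2BK occur in no other gene. The gaps of their pairs are therefore uncertain. So is the gap of HIST1H2AK and HIST1H2BN, whose exons overlap on opposite strands. For HIST1H2BN, 68.7% of the windows occur in no other gene.

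The promoters of the classes differ in their motifs. RefSeq windows of GRCh38.p14, from 250 bases before to 50 after each gene's start, were found for 65 members and searched on both strands. The octamer ATGCAAAT, the site of POU2F1, was in 11 of 15 H2A and 14 of 18 H2B windows, in 1 of 13 H3 windows and in 0 of 6 H1 and 0 of 13 H4 windows, against 492 of all 27305 windows. The H3 window is that of HIST1H3D, which RefSeq starts at the same base as HIST1H2AD, so 1 window is counted in both classes. Windows of head-to-head partners overlap as well. The CCAAT box was in every H1, H2A, H2B and H3 window and in 3 of 13 H4 windows, against 35.7% of all windows. The TATA box letters TATAAA were in 43 of 65 members' windows and in 3264 of all windows. These 3 motifs do not contain each other. The 250 bases before the start of HIST1H2BM, the H2B gene with the lowest difference, and of the H4 pair follow, with matches in capitals, read 5′ to 3′ on the strand of the gene. On the opposite strand the octamer reads ATTTGCAT, the CCAAT box ATTGG and the TATA letters TTTATA:
HIST1H2BM (chr6:27814772-27815021, plus strand): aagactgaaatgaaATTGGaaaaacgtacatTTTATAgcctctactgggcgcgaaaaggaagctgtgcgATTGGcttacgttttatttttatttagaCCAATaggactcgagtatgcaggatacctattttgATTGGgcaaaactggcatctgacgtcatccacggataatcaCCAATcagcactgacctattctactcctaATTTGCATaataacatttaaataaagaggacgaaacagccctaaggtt
HIST1H4J (chr6:27823842-27824091, plus strand): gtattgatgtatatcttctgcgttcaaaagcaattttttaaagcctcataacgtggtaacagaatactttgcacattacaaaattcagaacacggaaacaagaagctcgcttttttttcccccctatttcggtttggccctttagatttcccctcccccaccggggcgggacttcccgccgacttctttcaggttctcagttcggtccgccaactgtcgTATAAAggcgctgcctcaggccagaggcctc
HIST1H4K (chr6:27831561-27831810, minus strand): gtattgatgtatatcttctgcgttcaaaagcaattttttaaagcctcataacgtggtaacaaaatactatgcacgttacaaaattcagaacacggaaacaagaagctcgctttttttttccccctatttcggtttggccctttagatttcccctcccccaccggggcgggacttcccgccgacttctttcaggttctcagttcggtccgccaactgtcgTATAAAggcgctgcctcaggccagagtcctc
HIST1H2BM has the octamer 48 bases before its start on the opposite strand and 5 CCAAT boxes. Its only TATA match in these bases is on the opposite strand, 219 bases before the start. HIST1H4J and HIST1H4K differ at 5 of 250 bases here, and both have TATAAA beginning 31 bases before the start. A match is only a description of the letters.

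For 9 members the table lists several transcripts, and these differed within a gene. In 8 of the 9 genes, 1 transcript has a single exon and the others have more. The single-exon form had the lowest difference in 7 of these 8. No minimum level was applied to transcripts. Forms with more exons of HIST1H2BE, HIST1H2BJ and HIST1H2BN include some below 1 FPKM in both libraries, where the pseudocount draws the difference towards 0. For HIST1H2BD the single-exon transcript had 343.5 FPKM in the knockdown library and 969.1 FPKM in the control library (-1.49). Its 2-exon transcript had 14.1 FPKM in the knockdown library and 19.5 FPKM in the control library (-0.44). For HIST1H2BC the single-exon transcript had 307.6 FPKM in the knockdown library and 693.7 FPKM in the control library (-1.17), and the 2-exon transcript 7.50 FPKM in the knockdown library and 9.36 FPKM in the control library (-0.29). HIST2H2BF went the other way. Its single-exon transcript had 49.9 FPKM in the knockdown library and 149.2 FPKM in the control library (-1.56), and its 2-exon transcript 59.5 FPKM in the knockdown library and 228.7 FPKM in the control library (-1.92). Only 40.5% of the 50-base windows of that 2-exon transcript occur in no other gene. Its exons also overlap those of FCGR1A on the opposite strand, so its level is uncertain. Transcripts of 1 gene share exons, so their split is an estimate.

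**Figure D4:**
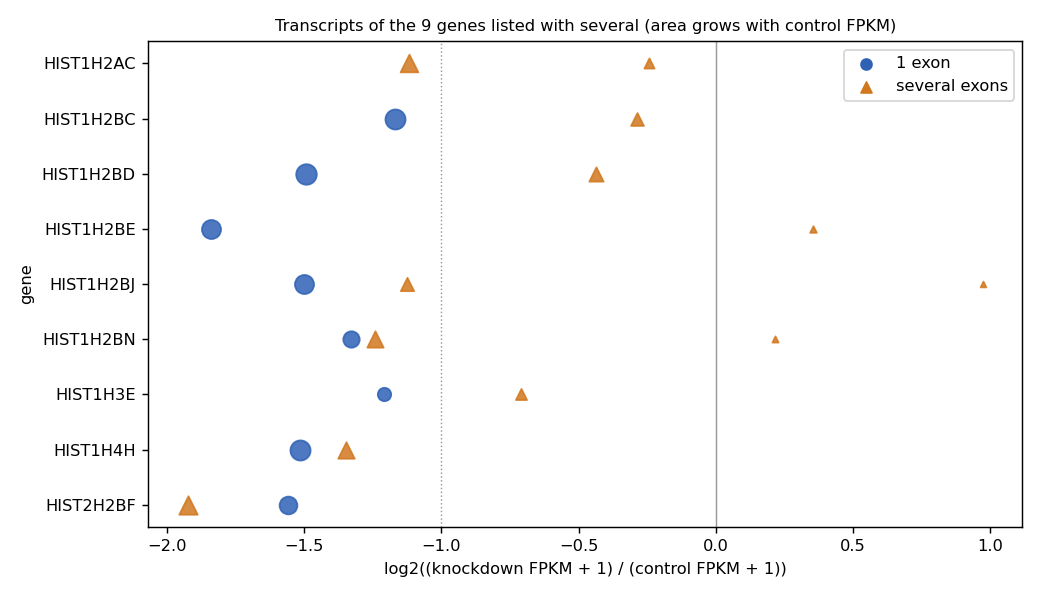
Log2 difference of each of the 20 transcripts of the 9 HIST genes listed with several, single-exon forms as circles and forms with more exons as triangles, with symbol area growing with control FPKM. Circles lie left of the triangles in 7 of the 8 genes that have both, and HIST2H2BF is the exception.

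Main transcripts with and without a match to the hairpin letters in their annotation had similar counts. A hairpin with other letters, or beyond the annotated end, would not be found by this search. The differences in this paragraph are those of the main transcript, not of the sum per gene. Of 18 measured members with a match in it, 14 were at least 2-fold lower, with a median of -1.30. In this group 1 member, HIST1H4J, was at least 2-fold higher. Of 29 members whose main transcript ends at the stop codon, 27 were at least 2-fold lower (median -1.43). Of 10 members with a longer main transcript and no match in it, 8 were at least 2-fold lower (median -1.32). HIST2H2BF is among these 10, although its single-exon transcript has a match.

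Genes that process histone mRNA gave 0 of 18 measured at least 2-fold lower or higher, with a median of -0.32. Over all measured genes 2.25% were at least 2-fold lower and 4.96% higher, so 0 of 18 is near those shares. SLBP, which binds the hairpin, had 26.0 FPKM in the knockdown library and 39.0 FPKM in the control library (-0.57). CASP8AP2, the FLASH protein of the cleavage complex, had the lowest difference with 7.95 FPKM in the knockdown library and 13.6 FPKM in the control library (-0.70), followed by SRRT, a partner of the cap-binding complex, at -0.67. LSM11, a subunit specific to the U7 particle, had the highest with 2.85 FPKM in the knockdown library and 1.72 FPKM in the control library (0.50), before the cap-binding subunit NCBP2 at 0.17.

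Genes that drive histone transcription had a median of -0.42, and 2 of 9 were at least 2-fold lower, against 2.25% of all measured genes. E2F1, a transcription factor of S-phase entry, had 5.83 FPKM in the knockdown library and 20.5 FPKM in the control library (-1.66). CDC25A, the phosphatase that activates CDK2, had 3.29 FPKM in the knockdown library and 7.96 FPKM in the control library (-1.06). NPAT had 5.81 FPKM in the knockdown library and 8.61 FPKM in the control library (-0.50). The highest were POU2F1 (-0.14) and CDK2 (-0.18).

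Histone genes outside the clusters had 2 members past 2-fold. The list holds 12 genes that make histones outside S phase or, as H2AFX does, in both ways. Of 11 measured, 2 were at least 2-fold lower, against 2.25% of all measured genes, and the median was -0.42. H2AFZ, which encodes H2A.Z, had 97.3 FPKM in the knockdown library and 317.8 FPKM in the control library (-1.70), and H2AFX, which encodes the DNA damage histone H2A.X, had 51.1 FPKM in the knockdown library and 104.6 FPKM in the control library (-1.02). The replacement histone H3.3 comes from 2 genes that differed in sign. H3F3A had 209.8 FPKM in the knockdown library and 286.2 FPKM in the control library (-0.45), and H3F3B had 512.5 FPKM in the knockdown library and 408.9 FPKM in the control library (0.32), the highest of the list before the linker histone gene H1F0 at 0.19.

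Of 20 histone chaperone genes, whose proteins carry histones to and from DNA, 2 were at least 2-fold lower and the median was -0.32. The share at least 2-fold lower over all measured genes was 2.25%. CHAF1A, the large subunit of the complex that loads H3 and H4 behind the replication fork, had 8.93 FPKM in the knockdown library and 24.4 FPKM in the control library (-1.36). HJURP, which loads the centromere histone CENP-A, had 30.0 FPKM in the knockdown library and 70.8 FPKM in the control library (-1.21). NASP, which holds the soluble stock of H3 and H4, had 56.9 FPKM in the knockdown library and 85.9 FPKM in the control library (-0.59). SPTY2D1 (0.12) and the H3.3 chaperone HIRA (-0.04) were highest.

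**Figure D5:**
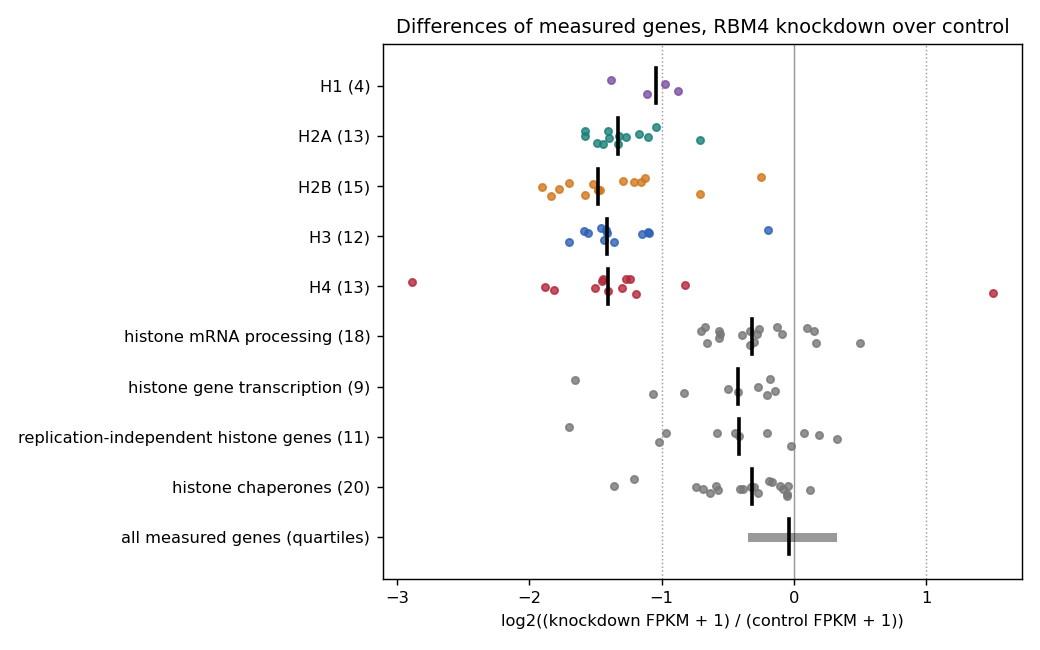
Log2 difference (RBM4 knockdown over control) of each measured HIST gene by class, and of each measured gene in 4 lists of related genes, with group medians as vertical bars and the quartiles of all measured genes as the band in the last row. The class medians lie between -1.48 and -1.04, and the list medians between -0.42 and -0.32.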

How the data were processed

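RNA of A549 cells with RBM4 knocked down and of A549 control cells was sequenced, 1 library per group. The authors deposited FPKM values per transcript for both. The tools named are TopHat, Cufflinks and CASAVA 1.8.2, with the hg38 genome, per the submitters' processing notes. Their roles, the annotation, the use of strand and any filter are not given in the sources used here. Fragment counts were not used here, so depth and counting error are unknown. Which column is which library rests on its name, and the name of the knockdown column holds a number that is in no sample label. The 3 value columns of the H1299 table match no sample label and were not used; only its symbols were read.

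FPKM were summed over 79989 transcripts to 19732 symbols with pandas 2.3.3 (Python 3.11.15). Genes with at least 1 FPKM in either library counted as measured, and the call was a 2-fold difference with a pseudocount of 1 FPKM. A fold on this scale understates the change of low genes. No test across libraries was possible. The steps were tested on simulated data.

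Positions, exons and transcript sequences came from GENCODE release 29, by transcript ID, and promoters from RefSeq (GRCh38.p14). Uniqueness was the share of 50-base windows of a gene's main transcript found in no other annotated gene. Any member could be named; values are given for the 3 most abundant and the extreme members of each class, the 2 highest and 2 lowest of each list, and RBM4, SLBP, NPAT, CASP8AP2, LSM11, H2AFZ, H3F3A, H3F3B and NASP; others named were chosen after their values were seen. Members and lists were chosen with earlier results of these data known. Alternatives were another pseudocount, other minimum levels, 3 other scalings, the highest transcript in place of the sum and, chosen after seeing the data, 2 ways of summing copies.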

Additional observations from a re-analysis of the deposited data

How the results depend on the processing

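The members stayed lower under each setting tried. The count of members at least 2-fold lower was 49 with a pseudocount of 0.1 FPKM, with no filter on low values, with a minimum of 5 FPKM, with the median of all genes centred on 0 and with only the most abundant transcript of each symbol. The count was 44 with both libraries at equal FPKM totals, and 41 with equal totals after leaving out 13 mitochondrial genes. With HIST1H4J and HIST1H4K summed it was 48, and 0 members were 2-fold higher. Of all genes measured, 1.44% (without mitochondrial genes) to 3.42% (pseudocount of 0.1 FPKM) were at least 2-fold lower. Between 55 and 63 members were measured, fewest with the minimum of 5 FPKM and most with no filter. The median difference was -1.41 with a pseudocount of 0.1 FPKM, -1.33 with no filter, -1.40 with a minimum of 5 FPKM, -1.36 with the median centred and -1.39 with the pair summed. At equal totals it was -1.29 and, without mitochondrial genes, -1.23. The log2 ratio of the summed level was -1.19 at equal totals, -1.14 without mitochondrial genes and -1.27 with the median centred. Adding HIST2H2AA3 to its copy left the counts as they were. Equal totals moved the median of all genes by 0.10, and by 0.15 without mitochondrial genes, and the members' median stood -1.35 and -1.34 from it, against -1.36 as reported. Among all genes past 2-fold, 68.8% were higher in the knockdown library as reported, 78.6% at equal totals and 82.2% without mitochondrial genes. List members at least 2-fold lower numbered 4 to 7 over all settings, against 6 as reported.

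No paired analysis was possible because each group has 1 library and the labels give no replicate numbers. Nor was there a library to leave out, and no difference has an error. Strand use by the authors is not known, so reads of overlapping genes, such as HIST2H3A with HIST2H4B, cannot be told apart.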
